A study of Mus musculus with 24 samples.

Results

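The S100 proteins are small calcium-binding proteins with a pair of EF hands, and most work by holding on to other proteins when calcium rises. The 8 genes described here were S100a1, S100a4, S100a6, S100a10, S100a11, S100a13, S100a14 and S100a16. They were listed by name, and they are 8 of the 55421 Ensembl gene entries of the count table. S100A10 and S100A11 bind annexins at membranes, S100A6 binds the ubiquitin ligase adaptor encoded by Cacybp, and S100A4 binds the nonmuscle myosin heavy chain encoded by Myh9. S100A13 takes part in the release of FGF1 and IL-1alpha, and S100A14 and S100A16 are abundant in epithelia.

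RNA was sequenced from AEC2s of wild-type mice (Krt8+/+) and of mice with a global Krt8 knockout (Krt8-/-). Freshly isolated cells stood for day 0, and cells of the same isolation were harvested after 1, 3 and 7 days of 2D culture. There were 3 isolations, each on its own date, giving 24 libraries in 8 groups of genotype and day. Sequencing depth ranged from 10184439 to 19483386 counts per library. The age and strain of the animals, and whether animals were pooled, were not stated in the sources used here. Levels are CPM on library sizes scaled by TMM, and values are listed in the order of isolations 1, 2 and 3. Differences are on the log2 scale from 1 edgeR fit of all 24 libraries, with p values adjusted over 18046 genes and a threshold of 0.05. All 6 comparisons with day 0 used the day 0 libraries of their genotype, so the 3 days of a genotype share their controls.

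The targeted gene was examined first. Krt8 was 485, 552 and 533 on day 0, 3160.2, 3394 and 3071 on day 1, 2599, 3866 and 3344 on day 3 and 4041, 5092 and 2956 on day 7 in Krt8+/+ AECs. The Krt8-/- values were 36.4, 31.1 and 21.2 on day 0, 47.4, 28.5 and 38.6 on day 1, 29.9, 28.7 and 32.2 on day 3 and 29.8, 34.7 and 26.2 on day 7. The groups did not overlap on any day, and the log2 difference between Krt8-/- and Krt8+/+ AECs by edgeR was -4.15 (adjusted p = 2.7e-09) on day 0 and -7.06 (adjusted p = 1.1e-12) on day 7, lower in 3 of 3 isolations. The cell label was checked next. Summed over 6 AEC2 markers, Krt8+/+ AECs had 221803, 284008 and 294296 on day 0, 85886, 14787 and 67169 on day 1, 422, 282 and 601 on day 3 and 133, 139 and 169 on day 7, and the Krt8-/- sums were 245950.0, 249779 and 298200.0 on day 0, 81600.1, 13928 and 61802 on day 1, 396, 358 and 577 on day 3 and 127, 149 and 116 on day 7. Sftpc was the most abundant of the 6 on day 0, and all 6 were lower than on day 0 on each day of culture in both genotypes. On day 7, Slc34a2 was at 0 in isolation 2 of both genotypes, and Sftpa1 in isolation 2 of Krt8-/- AECs. In bulk RNA, fewer cells of a type and less RNA per cell cannot be told apart, for these markers and for every gene below.

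The transitional AEC markers moved the other way. Summed over Krt8, Krt18, Krt19, Krt7, Cldn4, Sfn and Itgb6, Krt8+/+ AECs had 1119, 1284 and 1214 on day 0, 8445, 10157 and 9043 on day 1, 8029, 12238 and 10477 on day 3 and 14172, 16775 and 10350.3 on day 7. The Krt8-/- sums were 905, 945 and 850.5 on day 0, 5605, 6839.5 and 6084 on day 1, 8512, 7856 and 9421 on day 3 and 9372, 11349 and 5378 on day 7. These sums include Krt8, the targeted gene, so a lower Krt8-/- sum need not mean lower levels of the other markers. Between genotypes the median log2 difference of the 7 was 0.26, -0.092, 0.36 and 0.074 on days 0, 1, 3 and 7. All 7 were called higher than on day 0 on every day in Krt8+/+ AECs, and 6, all but Krt8, in Krt8-/- AECs. Of all genes tested, 26.2, 26.1 and 28.6% were called higher on days 1, 3 and 7 in Krt8+/+ AECs. The Krt8-/- shares were 23.7, 25.4 and 28.6%. Cldn4 had 7 and 28 counts over the 3 day 0 libraries of each genotype and passed the filter on low counts through its culture libraries, so a difference from day 0 was built into its passing. Krt8 was the most abundant of the 7 in 11 of the 12 Krt8+/+ libraries and Krt7 in the other, whereas Krt7 led in 8 Krt8-/- libraries. Cldn4 was at 0 in isolation 3 of Krt8+/+ AECs on day 0.

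The 8 S100 genes together made up a small share of the counts that was several times larger in culture. Their summed level was 595, 785 and 698 on day 0, 1622, 4207 and 2601 on day 1, 2549.7, 3011 and 3332 on day 3 and 3831, 3594 and 3337 on day 7 in Krt8+/+ AECs. For Krt8-/- AECs it was 737, 747 and 869 on day 0, 1760.3, 3486 and 2606 on day 1, 2829, 3516 and 3006 on day 3 and 3646, 3269 and 3427 on day 7. Every culture library was above every day 0 library, and the lowest culture sum was that of isolation 1 on day 1 in both genotypes. The mean share of all counts was 0.0529, 0.308, 0.347 and 0.377% on days 0, 1, 3 and 7 in Krt8+/+ AECs and 0.0605, 0.289, 0.356 and 0.359% in Krt8-/- AECs. S100a6 and S100a11 held 49.6, 73.0, 75.8 and 75.2% of the summed level on these days in Krt8+/+ AECs and 53.5, 74.9, 74.8 and 75.1% in Krt8-/- AECs.

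By edgeR, 6 of the 8 were higher and 1 was lower on day 1 than on day 0 in Krt8+/+ AECs, where 26.2% of all genes tested were called higher and 28.5% lower. On day 3 the count was again 6 higher and 1 lower, against 26.1% and 27.8% of all genes, and on day 7 it was 6 and 1, against 28.6% and 30.2%. Among Krt8-/- libraries, 5 were higher and 2 lower on day 1, beside 23.7% and 26.9% of all genes. The Krt8-/- counts were 6 higher and 1 lower on day 3, beside 25.4% and 26.6%, and 6 and 1 on day 7, beside 28.6% and 29.9%. The median log2 difference of the 8 was 1.91, 1.87 and 2.04 on days 1, 3 and 7 in Krt8+/+ AECs, where the median of all genes was 0, -0.0015 and 0. For Krt8-/- AECs the medians were 1.56, 2.01 and 1.88, with -0.014, -0.015 and 0.0024 for all genes. All 8 passed the filter on low counts. S100a4 passed through its culture libraries, since its day 0 libraries had 1 to 29 counts each, so a difference from day 0 was built into its passing.

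**Figure D1:**
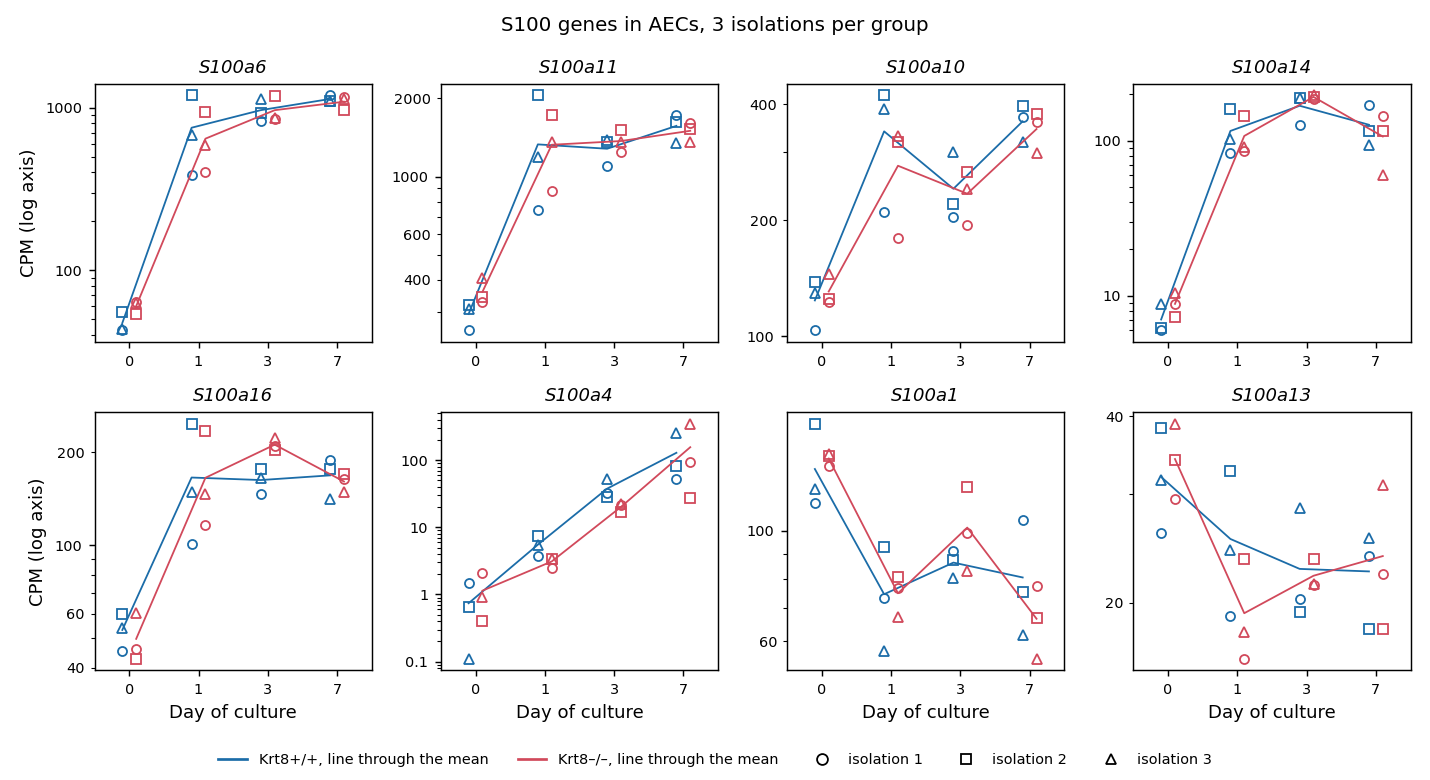
Levels of the 8 S100 genes in each library, by day and genotype. Each point is 1 isolation, and the vertical axes are logarithmic.

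S100a11 encodes the partner of annexin A1. Its level was 256, 322 and 309 on day 0, 745, 2055 and 1192 on day 1, 1101, 1358 and 1382 on day 3 and 1729.7, 1626 and 1348 on day 7 in Krt8+/+ AECs. Across Krt8-/- AECs it ran 329, 343 and 408 on day 0, 883, 1734 and 1362 on day 1, 1242, 1515 and 1356 on day 3 and 1614, 1526 and 1362 on day 7. All 9 culture libraries of each genotype were above all 3 of its day 0 libraries, and isolation 1 was the lowest of the 3 on day 1 and isolation 2 the highest. The log2 difference from day 0 by edgeR was 2.17 (SE 0.27, adjusted p = 1.5e-06) on day 1, 2.11 (SE 0.27, adjusted p = 1.6e-06) on day 3 and 2.41 (SE 0.27, adjusted p = 2.6e-07) on day 7 in Krt8+/+ AECs. It was 1.88 (SE 0.27, adjusted p = 8.4e-06) on day 1, 1.93 (SE 0.27, adjusted p = 5.2e-06) on day 3 and 2.06 (SE 0.27, adjusted p = 1.7e-06) on day 7 in Krt8-/- AECs by edgeR. The direction was the same in 3 of 3 isolations in each of these 6 comparisons. As ratios of mean CPM, the Krt8+/+ values were 4.50, 4.33 and 5.30 on days 1, 3 and 7, and the Krt8-/- values 3.68, 3.81 and 4.17.

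S100a11 has 5 copies elsewhere in the genome with at least 90% identity over 100 bases or more, so reads may be shared between them. These copies, chiefly Gm7665 (27310 counts over the 24 libraries) and Gm12854 (9172 counts), together had 7.86% to 12.999% as many counts as S100a11 in each library. With the copies added, the ratio to day 0 was 4.62, 4.37 and 5.28 on days 1, 3 and 7 in Krt8+/+ AECs and 3.72, 3.80 and 4.13 in Krt8-/- AECs.

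S100a10, which encodes the light chain of the annexin A2 tetramer, also rose, by less. In Krt8+/+ AECs its level was 104, 139 and 129 on day 0, 210.0, 422 and 389 on day 1, 204, 220.2 and 299.9 on day 3 and 369.9, 395 and 319 on day 7. Krt8-/- AECs had levels of 122, 125 and 145 on day 0, 179.7, 319.9 and 331 on day 1, 194, 267 and 241 on day 3 and 360.1, 377 and 298 on day 7. No culture library fell within the range of its genotype's day 0 libraries, and day 3 was below day 1 in all 3 isolations of Krt8+/+ AECs and in isolations 2 and 3 of Krt8-/- AECs, and below day 7 in all 3 of both. By edgeR the log2 difference from day 0 was 1.46 (SE 0.24, adjusted p = 4.1e-05) on day 1, 0.96 (SE 0.24, adjusted p = 0.0019) on day 3 and 1.55 (SE 0.24, adjusted p = 1.5e-05) on day 7 in Krt8+/+ AECs. The Krt8-/- values by edgeR were 1.09 (SE 0.24, adjusted p = 8.1e-04) on day 1, 0.84 (SE 0.24, adjusted p = 0.0055) on day 3 and 1.40 (SE 0.24, adjusted p = 4.4e-05) on day 7. Each was positive in 3 of 3 isolations. The day 3 calls were the weakest. Without isolation 3 the Krt8+/+ value by edgeR was 0.81 (adjusted p = 0.053), and without isolation 2 the Krt8-/- value was 0.77 (adjusted p = 0.089).

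The annexins these proteins bind were read alongside. Anxa2 was 723, 864 and 824 on day 0, 1360.4, 1663 and 1511 on day 1, 1842, 2009 and 2035 on day 3 and 2144, 2075 and 2144 on day 7 in Krt8+/+ AECs, and the groups of culture libraries did not overlap with day 0. Its log2 difference by edgeR was 0.91 (SE 0.12, adjusted p = 2.7e-06) on day 1, 1.29 (SE 0.12, adjusted p = 2.8e-08) on day 3 and 1.40 (SE 0.12, adjusted p = 6.2e-09) on day 7, higher in 3 of 3 isolations. Anxa1 was 225, 253 and 167 on day 0, 1491, 1715 and 1917 on day 1, 1653, 2031 and 2048 on day 3 and 2705, 3301 and 2401 on day 7, and by edgeR it was 2.99 (SE 0.20, adjusted p = 5.3e-10) on day 1, 3.15 (SE 0.20, adjusted p = 2.7e-10) on day 3 and 3.70 (SE 0.21, adjusted p = 2.5e-11) on day 7, again in 3 of 3. The same 3 differences in Krt8-/- AECs were 0.95, 1.45 and 1.41 for Anxa2 and 2.695, 3.17 and 3.46 for Anxa1, all called. Ahnak, whose large scaffold protein binds S100A10 with annexin A2, had log2 differences of 1.77, 1.42 and 1.64 in Krt8+/+ AECs (adjusted p = 9.7e-07, 1.1e-05 and 1.4e-06 by edgeR) and 1.38, 1.18 and 1.63 in Krt8-/- AECs, all called, in 3 of 3 isolations.

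The other annexins on the list did not all go the same way. Anxa5 was higher on days 1, 3 and 7 in Krt8+/+ AECs, with edgeR log2 differences of 1.21, 1.82 and 1.75 (adjusted p = 2.9e-08, 1.7e-10 and 1.3e-10) in 3 of 3 isolations, and the Krt8-/- differences were 1.06, 1.90 and 1.51, all called. Anxa6, which also binds S100A6, was 503, 535 and 514 on day 0, 187, 92.6 and 131 on day 1, 259.6, 299 and 219 on day 3 and 376, 437 and 394 on day 7, and its edgeR differences were -1.92, -0.997 and -0.36 (adjusted p = 7.0e-08, 1.3e-04 and 0.096), lower in 3 of 3 isolations. The Krt8-/- differences of Anxa6 were -1.80, -0.80 and -0.23, and the value on day 7 was not called in either genotype. Anxa11, another partner of S100A6, was 109.9, 120.2 and 111 on day 0, 117, 112 and 116 on day 1, 65.3, 85.0 and 81.0 on day 3 and 50.4, 51.8 and 43.5 on day 7 in Krt8+/+ AECs, with differences of 0.011, -0.56 and -1.23 (adjusted p = 0.95, 0.0013 and 1.7e-07 by edgeR), lower in 3 of 3 on days 3 and 7. In Krt8-/- AECs Anxa11 differed by 0.40, -0.38 and -1.27 (adjusted p = 0.018, 0.021 and 1.0e-07 by edgeR), higher in 3 of 3 on day 1 and lower in 3 of 3 on days 3 and 7. The Krt8-/- call on day 1 by edgeR was lost without isolation 3 (0.18, adjusted p = 0.35) and that on day 3 without isolation 1 (-0.34, adjusted p = 0.11) or 2 (-0.32, adjusted p = 0.2). The interaction test of Anxa11 had an unadjusted p of 0.13 and an adjusted p of 1.

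S100a6 had the largest ratio to day 0 among the 3 members with the highest levels per kilobase on day 7. Its level in Krt8+/+ AECs was 42.8, 55.7 and 43.6 on day 0, 386, 1190.3 and 682 on day 1, 828, 933 and 1137 on day 3 and 1191, 1106 and 1099 on day 7. This gene had 63.7, 54.0 and 62.7 on day 0, 400.0, 947 and 587 on day 1, 857, 1175 and 864 on day 3 and 1171, 968 and 1126 on day 7 in Krt8-/- AECs. Day 0 and culture did not overlap in either genotype. On day 1, isolation 2 was above isolations 1 and 3 in both genotypes, and isolation 1 was the lowest. The edgeR log2 difference from day 0 was 3.99 (SE 0.34, adjusted p = 8.8e-09) on day 1, 4.35 (SE 0.34, adjusted p = 2.8e-09) on day 3 and 4.58 (SE 0.35, adjusted p = 9.3e-10) on day 7 in Krt8+/+ AECs. The same comparisons gave 3.42 (SE 0.33, adjusted p = 4.9e-08) on day 1, 4.004 (SE 0.34, adjusted p = 7.6e-09) on day 3 and 4.18 (SE 0.34, adjusted p = 2.4e-09) on day 7 in Krt8-/- AECs by edgeR. Every isolation showed the direction, 3 of 3 in each comparison. The ratio of mean CPM to day 0 reached 23.9 on day 7 in Krt8+/+ AECs and 18.1 in Krt8-/- AECs. With 1 isolation left out, the day 7 log2 difference lay between 4.47 and 4.79 in Krt8+/+ AECs.

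Cacybp and Sugt1 encode proteins that bind S100A6. Cacybp was 161, 144 and 125 on day 0, 248, 301 and 254 on day 1, 249, 203 and 226 on day 3 and 257, 242 and 296 on day 7 in Krt8+/+ AECs. Its log2 difference by edgeR was 0.90 (SE 0.15, adjusted p = 3.5e-05) on day 1, 0.66 (SE 0.15, adjusted p = 7.6e-04) on day 3 and 0.89 (SE 0.15, adjusted p = 2.9e-05) on day 7, higher in 3 of 3 isolations, and no culture library was within the day 0 range. Sugt1 was 48.6, 55.1 and 43.5 on day 0, 61.2, 94.9 and 57.7 on day 1, 66.8, 63.1 and 68.7 on day 3 and 74.5, 80.1 and 71.0 on day 7. The edgeR values of Sugt1 were 0.54 (SE 0.16, adjusted p = 0.0074) on day 1, 0.43 (SE 0.16, adjusted p = 0.026) on day 3 and 0.62 (SE 0.16, adjusted p = 0.0023) on day 7, higher in 3 of 3 isolations. The day 3 edgeR call of Sugt1 was lost without isolation 1 (adjusted p = 0.14) and without isolation 3 (0.22). The 3 Krt8-/- differences were 0.71, 0.49 and 0.73 for Cacybp and 0.55, 0.53 and 0.55 for Sugt1, all called. On day 3 the Krt8-/- edgeR call of Cacybp was lost without isolation 1 (adjusted p = 0.17) or 3 (0.066), and that of Sugt1 without isolation 1 (0.13). Without isolation 1 the day 7 edgeR call of Sugt1 in Krt8-/- AECs was lost too (adjusted p = 0.1).

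S100a14 and S100a16 are neighbours on the chromosome, and their proteins bind each other. S100a14 was 5.98, 6.17 and 8.86 on day 0, 83.3, 160.3 and 102 on day 1, 126, 189 and 187 on day 3 and 171, 115 and 93.3 on day 7 in Krt8+/+ AECs. Over Krt8-/- AECs it was 8.85, 7.29 and 10.4 on day 0, 86.2, 144 and 91.2 on day 1, 186, 192 and 196 on day 3 and 143, 115 and 60.0 on day 7. The lowest culture library, isolation 3 of Krt8-/- AECs on day 7, was still above every day 0 library. By edgeR, S100a14 differed from day 0 by 4.05 (SE 0.35, adjusted p = 1.0e-08) on day 1, 4.59 (SE 0.35, adjusted p = 2.1e-09) on day 3 and 4.18 (SE 0.35, adjusted p = 3.4e-09) on day 7 in Krt8+/+ AECs. The edgeR values for Krt8-/- AECs were 3.59 (SE 0.33, adjusted p = 3.5e-08) on day 1, 4.43 (SE 0.35, adjusted p = 3.0e-09) on day 3 and 3.58 (SE 0.33, adjusted p = 1.6e-08) on day 7. All 6 comparisons had 3 of 3 isolations higher. Day 7 was below day 3 in isolations 2 and 3 of Krt8+/+ AECs and in all 3 of Krt8-/- AECs.

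S100a16 changed less. It was 45.3, 60.0 and 53.9 on day 0, 101, 247 and 149 on day 1, 146, 176 and 165 on day 3 and 188, 176 and 141 on day 7 in Krt8+/+ AECs. Its Krt8-/- levels were 46.1, 42.8 and 60.0 on day 0, 116, 234 and 146 on day 1, 209, 204 and 222 on day 3 and 163, 171 and 148 on day 7. Culture and day 0 libraries did not overlap, and isolation 2 was again the highest on day 1. The log2 difference by edgeR was 1.64 (SE 0.26, adjusted p = 2.3e-05) on day 1, 1.62 (SE 0.26, adjusted p = 2.4e-05) on day 3 and 1.67 (SE 0.26, adjusted p = 1.3e-05) on day 7 in Krt8+/+ AECs. For Krt8-/- AECs edgeR gave 1.73 (SE 0.26, adjusted p = 1.4e-05) on day 1, 2.09 (SE 0.26, adjusted p = 1.3e-06) on day 3 and 1.69 (SE 0.26, adjusted p = 1.1e-05) on day 7. The direction held in 3 of 3 isolations each time.

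S100a4, a gene often read as a marker of mesenchymal and myeloid cells, was close to absent on day 0. The 6 day 0 libraries had 23, 6 and 1 counts in Krt8+/+ AECs and 29, 4 and 12 in Krt8-/- AECs. In CPM, Krt8+/+ AECs had 1.46, 0.650 and 0.111 on day 0, 3.75, 7.44 and 5.36 on day 1, 32.4, 28.4 and 52.1 on day 3 and 52.7, 82.9 and 250.3 on day 7. Krt8-/- AECs had 2.09, 0.405 and 0.927 on day 0, 2.51, 3.37 and 3.43 on day 1, 21.3, 16.9 and 22.2 on day 3 and 93.7, 27.5 and 346 on day 7. On day 7 isolation 3 was far above the other isolations in both genotypes, and isolation 2 of Krt8-/- AECs was the lowest. No culture library was within the day 0 range of its genotype, although isolation 1 on day 1 of Krt8-/- AECs (2.51) was close to isolation 1 on day 0 (2.09).

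The log2 difference of S100a4 from day 0 by edgeR was 2.699 (SE 0.90, adjusted p = 0.015) on day 1, 5.47 (SE 0.87, adjusted p = 2.3e-05) on day 3 and 7.25 (SE 0.90, adjusted p = 8.5e-07) on day 7 in Krt8+/+ AECs. It was 1.38 (SE 0.87, adjusted p = 0.2) on day 1, 4.07 (SE 0.82, adjusted p = 3.0e-04) on day 3 and 7.02 (SE 0.87, adjusted p = 7.8e-07) on day 7 in Krt8-/- AECs by edgeR, so day 1 was called in Krt8+/+ AECs only. The interaction test of genotype and day gave an unadjusted p of 0.44 and an adjusted p of 1. Each comparison had 3 of 3 isolations higher. The size depended on single isolations. Without isolation 1, the Krt8+/+ differences were 4.02, 6.68 and 8.73 on days 1, 3 and 7. Without isolation 2 the day 1 value was 2.40 (adjusted p = 0.07) by edgeR and not called. Without isolation 3 the Krt8+/+ differences on days 3 and 7 were 4.75 and 5.91. The Krt8-/- differences without isolation 1 were 2.28 on day 1, 4.80 on day 3 and 8.06 on day 7, and without isolation 3 the day 7 value was 5.50. In these fits day 1 stayed uncalled and the calls on days 3 and 7 were kept.

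Like S100a4, the summed pericyte or smooth muscle markers were higher on days 3 and 7 than on day 0. Summed over the pericyte or smooth muscle markers Pdgfrb, Myh11, Des and Cspg4, Krt8+/+ AECs had 24.5, 11.6 and 4.87 on day 0, 27.5, 11.3 and 10.9 on day 1, 142, 97.5 and 92.5 on day 3 and 158, 204 and 297 on day 7. The Krt8-/- sums were 23.96, 11.7 and 6.57 on day 0, 12.3, 16.3 and 13.3 on day 1, 84.3, 95.9 and 42.7 on day 3 and 184, 239 and 498 on day 7. Isolation 3 on day 7 was the highest library of each genotype, as for S100a4. On day 3 the order went the other way. Isolation 3 then had the lowest sum of its group in both genotypes but the highest S100a4 level. By edgeR, 0 of the 4 were called on day 1, with 0 at an unadjusted p under 0.05 and 0 by DESeq2, in both genotypes. On day 3 there were 3 of 4 called higher in each genotype, and on day 7 there were 4 of 4. For these and the marker lists below, the shares of all genes called on each day were those given above. The most abundant of the 4 was Pdgfrb in 11 of 24 libraries, and only Cspg4 in isolation 3 of Krt8-/- AECs on day 0 was at 0.

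The 6 fibroblast markers Col1a1, Col1a2, Col3a1, Pdgfra, Dcn and Lum summed to 979, 499.8 and 293 on day 0, 249, 156 and 135 on day 1, 1729, 1282 and 961 on day 3 and 869.6, 951 and 1805 on day 7 in Krt8+/+ AECs. In Krt8-/- AECs the fibroblast sums were 720.1, 559.9 and 328 on day 0, 171, 173 and 91.6 on day 1, 943, 1273 and 608 on day 3 and 902, 797 and 2978 on day 7. Unlike S100a4, these sums were well above 0 on day 0 and were lowest on day 1, and on day 7 the sum of isolation 3 was again the highest. Single markers differed from the sum, with Pdgfra higher on day 1 than on day 0 in 3 of 3 isolations of both genotypes, not called, and the means of Dcn and Lum lowest on day 7. In Krt8+/+ AECs edgeR called 0 higher and 4 lower on day 1, 2 and 1 on day 3, and 2 and 3 on day 7. The Krt8-/- calls were 0 and 4, 2 and 1, and 2 and 2. The leading gene varied among Dcn, Col1a1, Col1a2, Col3a1 and Pdgfra, and Lum was at 0 in isolation 2 of Krt8-/- AECs on day 7.

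Macrophage markers did not follow S100a4. Summed over Marco, Adgre1, Csf1r, Mrc1, Cd68 and Ptprc, Krt8+/+ AECs had 45.9, 28.1 and 14.4 on day 0, 179, 93.4 and 25.3 on day 1, 123, 42.3 and 19.3 on day 3 and 133, 39.8 and 9.21 on day 7. The Krt8-/- sums for these 6 were 35.8, 23.0 and 7.80 on day 0, 107, 73.9 and 21.2 on day 1, 76.4, 42.8 and 16.5 on day 3 and 67.9, 22.0 and 8.04 on day 7. On day 7 isolation 3 was the lowest of its group. Cd68 was the most abundant in 18 of 24 libraries, Marco was at 0 in isolations 2 and 3 of both genotypes on day 0 and in isolation 3 of Krt8+/+ AECs on day 7, and Adgre1 in isolation 3 of both genotypes on day 7. In both genotypes edgeR called 1 of the 6 higher on day 1, Cd68 in Krt8+/+ AECs and Marco, with 2 counts over the 3 day 0 libraries, in Krt8-/- AECs. On days 3 and 7 it called 0 in Krt8+/+ AECs, with 0 and 1 at an unadjusted p under 0.05 and 0 and 1 by DESeq2. For Krt8-/- AECs those counts were also 0, with 1 and 1 unadjusted and 1 and 1 by DESeq2. The mean sum of the mesothelial markers Msln, Upk3b, Wt1 and Lrrn4 rose over the days. It was 128, 283, 943 and 1470 on days 0, 1, 3 and 7 in Krt8+/+ AECs. In Krt8-/- AECs it was 144, 335, 1237 and 1673. On day 7 edgeR called 1 of the 4 higher and 3 lower in Krt8+/+ AECs, and 1 and 2 in Krt8-/- AECs. All 3 proliferation markers were called higher by edgeR on days 3 and 7 in both genotypes. The part of these cell types or of proliferation in the S100a4 result was not tested.

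**Figure D2:**
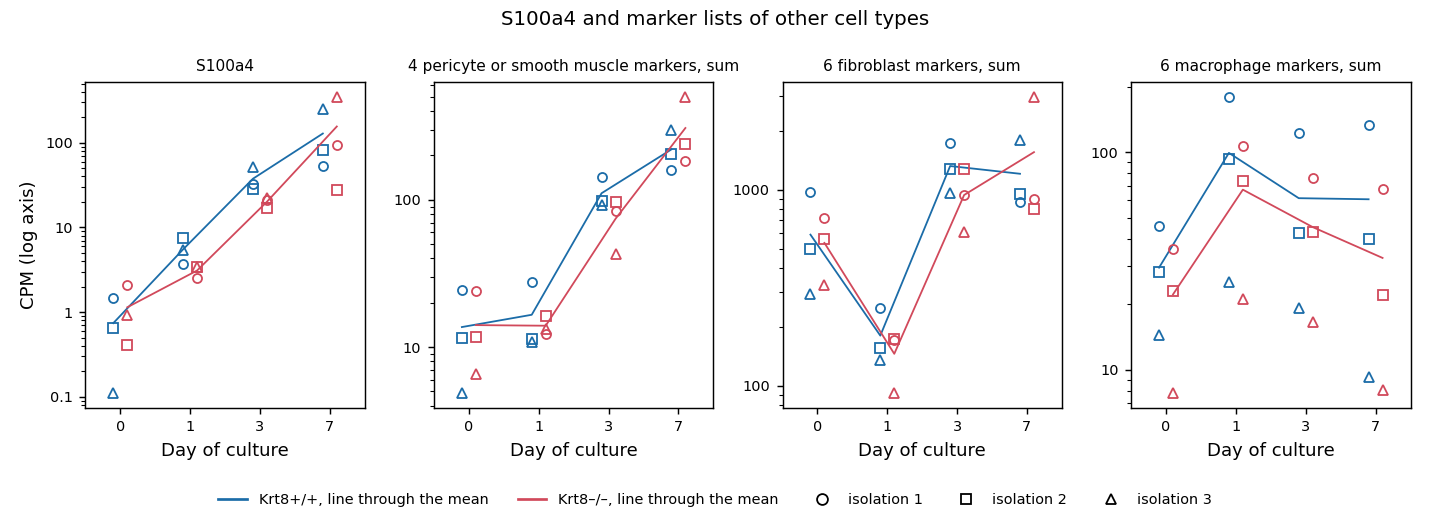
S100a4 and the summed levels of pericyte or smooth muscle, fibroblast and macrophage markers in each library. Points are single isolations and the vertical axes are logarithmic.

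Myh9 encodes the myosin that S100A4 binds. In Krt8+/+ AECs it was 186, 148 and 126 on day 0, 364, 326 and 298 on day 1, 575, 857 and 629 on day 3 and 589.7, 694 and 649.9 on day 7. The log2 difference by edgeR was 1.10 (SE 0.20, adjusted p = 9.4e-05) on day 1, 2.16 (SE 0.20, adjusted p = 2.8e-08) on day 3 and 2.07 (SE 0.20, adjusted p = 3.1e-08) on day 7, higher in 3 of 3 isolations with no overlap with day 0. Differences in Krt8-/- AECs were 1.25, 2.10 and 2.42 (adjusted p = 2.8e-05, 4.6e-08 and 4.5e-09 by edgeR), in 3 of 3 isolations. Unlike S100a4, Myh9 was abundant on day 0, and isolation 3 was not the highest on day 7. Myh14, another nonmuscle myosin heavy chain gene, had -1.57 (SE 0.25, adjusted p = 3.1e-05) on day 1, -0.43 (SE 0.25, adjusted p = 0.15) on day 3 and -1.08 (SE 0.25, adjusted p = 9.0e-04) on day 7 by edgeR in Krt8+/+ AECs, lower in 3 of 3 isolations and called on days 1 and 7. Its Krt8-/- values by edgeR were -1.22 (SE 0.25, adjusted p = 4.3e-04) on day 1, -0.13 (SE 0.25, adjusted p = 0.69) on day 3 and -0.89 (SE 0.25, adjusted p = 0.0045) on day 7, lower in 3, 2 and 3 of 3 isolations and called on the same days.

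The remaining members were flat or lower in culture. S100a1, best known from muscle, was 114, 164 and 121 on day 0, 73.3, 92.9 and 57.4 on day 1, 91.2, 87.4 and 80.2 on day 3 and 105, 75.1 and 61.6 on day 7 in Krt8+/+ AECs. Krt8-/- AECs had 135, 141 and 143 on day 0, 76.8, 80.9 and 66.9 on day 1, 99.1, 123 and 82.8 on day 3 and 77.4, 66.9 and 55.3 on day 7 of S100a1. No culture library reached the day 0 range of its genotype, but isolation 1 on day 7 of Krt8+/+ AECs (105) and isolation 2 on day 3 of Krt8-/- AECs (123) came near it. By edgeR the log2 difference was -0.84 (SE 0.20, adjusted p = 0.0015) on day 1, -0.62 (SE 0.20, adjusted p = 0.012) on day 3 and -0.72 (SE 0.20, adjusted p = 0.0038) on day 7 in Krt8+/+ AECs. With Krt8-/- AECs, edgeR gave -0.90 (SE 0.20, adjusted p = 8.6e-04) on day 1, -0.46 (SE 0.20, adjusted p = 0.058) on day 3 and -1.07 (SE 0.20, adjusted p = 1.1e-04) on day 7 for S100a1. All were lower in 3 of 3 isolations. The Krt8+/+ calls on days 3 and 7 depended on isolation 2, without which the edgeR values were -0.37 (adjusted p = 0.23) and -0.43 (adjusted p = 0.16). The Krt8-/- value on day 3 was called by edgeR with isolation as a block (-0.48, adjusted p = 0.016) and with the compared libraries only (-0.44, adjusted p = 0.029). The interaction test had an unadjusted p of 0.35 and an adjusted p of 1.

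S100a13 was 25.9, 38.2 and 31.6 on day 0, 19.0, 32.7 and 24.3 on day 1, 20.3, 19.3 and 28.4 on day 3 and 23.8, 18.2 and 25.4 on day 7 in Krt8+/+ AECs. Its levels in Krt8-/- AECs were 29.4, 34.0 and 38.9 on day 0, 16.2, 23.5 and 17.9 on day 1, 21.4, 23.5 and 21.4 on day 3 and 22.2, 18.1 and 30.9 on day 7. Groups overlapped on days 1 and 3 in Krt8+/+ AECs and on day 7 in Krt8-/- AECs. The edgeR log2 difference was -0.33 (SE 0.23, adjusted p = 0.23) on day 1, -0.49 (SE 0.23, adjusted p = 0.077) on day 3 and -0.50 (SE 0.23, adjusted p = 0.065) on day 7 in Krt8+/+ AECs, lower in 3 of 3 isolations and not called. It was -0.82 (SE 0.23, adjusted p = 0.0054) on day 1, -0.63 (SE 0.23, adjusted p = 0.027) on day 3 and -0.52 (SE 0.23, adjusted p = 0.057) on day 7 in Krt8-/- AECs, also lower in 3 of 3 by edgeR and called on days 1 and 3. The interaction test gave an unadjusted p of 0.41 and an adjusted p of 1. Without isolation 3 the Krt8-/- day 1 value by edgeR was -0.67 (adjusted p = 0.078) and not called, and the day 3 call was lost without any 1 of the 3 isolations, at -0.70 (adjusted p = 0.074), -0.61 (adjusted p = 0.065) and -0.50 (adjusted p = 0.18) without isolations 1, 2 and 3. With isolation as a block in edgeR, the Krt8-/- day 7 value was called (adjusted p = 0.04). Without isolation 2 it was -0.30 (adjusted p = 0.33) by edgeR and not called. The Krt8+/+ values without isolation 2 were -0.16 (adjusted p = 0.63) on day 3 and -0.16 (adjusted p = 0.62) on day 7 by edgeR.

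The genes of the secreted partners of S100A13 did not go the same way as each other. Fgf1 was 212, 211 and 212 on day 0, 47.4, 19.4 and 38.4 on day 1, 11.2, 19.3 and 24.3 on day 3 and 3.61, 4.81 and 11.002 on day 7 in Krt8+/+ AECs. Its log2 difference by edgeR was -2.59 (SE 0.39, adjusted p = 1.2e-05) on day 1, -3.53 (SE 0.40, adjusted p = 3.5e-07) on day 3 and -5.02 (SE 0.44, adjusted p = 7.0e-09) on day 7, lower in 3 of 3 isolations and without overlap. The day 7 value was -5.65 without isolation 3. The Krt8-/- Fgf1 differences were -2.19, -2.69 and -4.91, all called lower. Il1a was 0.191, 0.867 and 0 on day 0, 26.8, 19.5 and 0 on day 1, 7.94, 1.04 and 0.397 on day 3 and 13.5, 4.40 and 0.0663 on day 7 in Krt8+/+ AECs, so isolation 3 had next to none. The summed macrophage markers given above were also lowest in isolation 3 on each day in Krt8+/+ AECs. The part of macrophages in the Il1a result was not tested. With 11 and 14 counts over the 3 day 0 libraries of each genotype, Il1a passed the filter through its culture libraries, so a difference from day 0 was built into its passing. The edgeR values of Il1a were 5.49 (SE 1.76, adjusted p = 0.012) on day 1, 3.18 (SE 1.73, adjusted p = 0.13) on day 3 and 4.12 (SE 1.73, adjusted p = 0.046) on day 7, higher in 2 of 3 isolations on day 1 and in 3 of 3 on days 3 and 7. Its edgeR calls on days 1 and 7 were lost without isolation 1 (adjusted p = 0.11 and 0.4, log2 4.45 and 2.31) and without isolation 2 (adjusted p = 0.084 and 0.12, log2 6.80 and 5.84). On day 3 the values were 0.69 without isolation 1, 5.15 without isolation 2 and, called by edgeR, 3.23 (adjusted p = 0.027) without isolation 3. Il1a had 3.94, 2.51 and 2.38 (adjusted p = 0.056, 0.22 and 0.23 by edgeR) in Krt8-/- AECs, higher in 3, 3 and 2 of 3 isolations and not called, but without isolation 3 the values were 5.01 (adjusted p = 0.0049), 3.51 (adjusted p = 0.031) and 3.46 (adjusted p = 0.029). Without isolation 1 they were 2.33 on day 1 and 1.37 on day 7, and without isolation 2 1.77 on day 3. The interaction test of Il1a gave an unadjusted p of 0.87 and an adjusted p of 1.

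The days of culture were compared with each other in Krt8+/+ AECs only. From day 1 to day 3, edgeR called 1 of the 8 higher and 0 lower, where 14.4% of all genes were called higher and 11.9% lower. There were 2 at an unadjusted p under 0.05, and DESeq2 called 1. The gene called was S100a4, with a log2 difference of 2.78 (SE 0.70, adjusted p = 0.006) by edgeR in 3 of 3 isolations and no overlap. Without isolation 1 it was 2.66 (adjusted p = 0.056) by edgeR and not called. S100a10 was lower by -0.50 (SE 0.24, adjusted p = 0.13) in 3 of 3 isolations, not called by edgeR, and was called without isolation 1 at -0.64 (adjusted p = 0.033). Without isolation 2 the S100a10 value by edgeR was -0.26 (adjusted p = 0.67) and not called. S100a6 had 0.36 (SE 0.30, adjusted p = 0.39) in 2 of 3 isolations by edgeR and was called without isolation 2 at 0.87 (adjusted p = 0.044). By edgeR S100a6 was 0.15 (adjusted p = 0.76) without isolation 1 and 0.16 (adjusted p = 0.84) without isolation 3. Isolation 2 had the highest day 1 level of all 8 members. The median of the 8 was 0.093, beside -0.050 for all genes.

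From day 3 to day 7 in Krt8+/+ AECs, edgeR called 0 of the 8 higher and 0 lower, against 3.11% and 3.47% of all genes. At an unadjusted p under 0.05 there were 2, S100a4 and S100a10, and DESeq2 called 0. S100a4 had 1.77 (SE 0.64, adjusted p = 0.11) and S100a10 0.58 (SE 0.24, adjusted p = 0.17) by edgeR, each higher in 3 of 3 isolations. Without the filter on low counts edgeR called the S100a4 value (adjusted p = 0.034), and without isolation 3 it was 1.16 (adjusted p = 0.32) and not called. The median of the 8 was 0.14, and that of all genes -0.010.

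No genotype difference was called for the 8 genes. Between Krt8-/- and Krt8+/+ AECs edgeR called 0 of 8 on day 0, with 0.0277% of all genes called, and 0 on day 1 (0.0166%), day 3 (0.0166%) and day 7 (0.0166%). On each day 0 of the 8 had an unadjusted p under 0.05 and DESeq2 called 0. The interaction of genotype and day called 0 of 8 by edgeR, where it called 0.00554% of all genes, which was Krt8 alone. That test also had 0 of 8 at an unadjusted p under 0.05 and 0 by DESeq2. The medians of the 8 on days 0, 1, 3 and 7 were 0.19, -0.16, 0.049 and -0.065, beside -0.0040, -0.012, 0.0027 and 0.0042 for all genes.

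The intervals of these genotype differences are for single genes and are not adjusted, so differences beyond their width may also have gone uncalled. Groups of 3 libraries can fail to overlap by chance, and the share of all genes without overlap is not given here. For S100a11 on day 0 the log2 difference by edgeR was 0.28 (95% interval -0.26 to 0.83, adjusted p = 1), higher in 3 of 3 isolations without overlap. On day 3 S100a16 was at 0.38 (95% interval -0.14 to 0.90, adjusted p = 1) by edgeR, likewise in 3 of 3 without overlap. S100a4 was lower in 3 of 3 isolations on day 1 at -0.82 (95% interval -2.36 to 0.73, adjusted p = 1) and on day 3 at -0.90 (95% interval -2.24 to 0.43, adjusted p = 1) by edgeR, and neither day overlapped. On day 7 it was 0.28 (95% interval -1.02 to 1.57, adjusted p = 1) by edgeR, higher in 2 of 3. S100a6 was 0.35 (95% interval -0.28 to 0.98, adjusted p = 1) on day 0 by edgeR, higher in 2 of 3, and -0.056 (95% interval -0.67 to 0.56, adjusted p = 1) on day 7, higher in 1 of 3. On day 1 S100a10 was -0.30 (95% interval -0.79 to 0.20, adjusted p = 1) and S100a13 -0.39 (95% interval -0.87 to 0.084, adjusted p = 1) by edgeR, each lower in 3 of 3 with overlap.

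Summed markers of 2 other cell types were higher in Krt8-/- than in Krt8+/+ AECs on day 0, though none was called. The 4 ciliated or club cell markers Foxj1, Tppp3, Scgb1a1 and Scgb3a2 summed to 4489, 10084 and 5289 in Krt8+/+ AECs and 12278, 12199.9 and 17351 in Krt8-/- AECs, and the 6 AEC1 markers Ager, Hopx, Aqp5, Pdpn, Rtkn2 and Cav1 to 2387, 2845 and 2994 and 3359.7, 3198 and 3537, neither with overlap. Scgb1a1 and Ager were the most abundant of their lists in all 6 day 0 libraries, and no marker was at 0. Of these, edgeR and DESeq2 called 0 of 4 and 0 of 6, with 2 and 3 at an unadjusted p under 0.05 by edgeR. Their part in the S100a11 value on day 0 was not tested.

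On day 7 the other genotype differences by edgeR were -0.066 (95% interval -0.56 to 0.43, adjusted p = 1) for S100a10, lower in 3 of 3 isolations. S100a1 was at -0.28 (95% interval -0.69 to 0.14) and S100a14 at -0.25 (95% interval -0.86 to 0.36) by edgeR. Each was lower in 3 of 3 isolations, with overlap, and not called. S100a11 had -0.063 (95% interval -0.61 to 0.48, adjusted p = 1) in edgeR and was lower in 2 of 3. S100a13 was at 0.082 (95% interval -0.39 to 0.56, adjusted p = 1) by edgeR, higher in 1 of 3, and S100a16 at -0.066 (95% interval -0.59 to 0.46, adjusted p = 1), lower in 2 of 3. Sex differed between the genotypes in isolation 1. There the Krt8+/+ libraries had Xist at 62.4 to 79.5 and Y-linked genes at a sum of 0.441 or less, whereas the Krt8-/- libraries had Xist at 5.92 to 12.0 and Y-linked genes at 173 to 191. In isolation 2 both genotypes had Xist and almost no Y-linked counts, and in isolation 3 both had Y-linked counts. Sex and genotype cannot be told apart within isolation 1.

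Summed levels, shares of a sum and the most abundant gene of a list are in CPM, without a correction for length. For ranks of the 8 members, levels were taken per kilobase, of the longest principal transcript unless stated, with lengths from GENCODE. S100a11 had rank 1 of the 8 in every group, with means of 579, 2604, 2505 and 3068 CPM per kilobase on days 0, 1, 3 and 7 in Krt8+/+ AECs. S100a6 had rank 4 on day 0 and rank 2 from day 1 on, at 64.8, 1030.0, 1322 and 1548. S100a10 was at 181, 497, 352 and 527, with rank 3 throughout. S100a1 had rank 2 on day 0 and rank 7 on day 7, at 197, 110.1, 127 and 119. With the shortest principal transcripts S100a10 had rank 2 and S100a1 rank 3 on day 0 in both genotypes. With merged exons S100a6 had rank 5 on day 0 in both, and S100a1 had rank 5 on day 7 in Krt8+/+ AECs and rank 6 in Krt8-/- AECs. With the longest transcripts the ranks of these genes on day 0 and day 7 were the same in Krt8-/- AECs, with 705, 2595, 2683 and 2937 for S100a11 and 82.3, 882, 1321 and 1489 for S100a6.

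S100a16 was at 47.1, 147, 144 and 149 in Krt8+/+ AECs, S100a14 at 6.61, 109, 158 and 119 and S100a13 at 44.6, 35.4, 31.7 and 31.4. S100a4 went from rank 8, at 1.49, to rank 4 (rank 6 with the shortest principal transcripts), at 258, on the mean of day 7 isolations at 106 to 503. Levels depended on the length chosen. The day 7 level of S100a6 in Krt8+/+ AECs was 2439 with the shortest principal transcript and 828 with the merged exon length. It had rank 2 in each case. S100a14 was at 262 with the shortest, of rank 5, and at 73.2 with merged exons, of rank 7. S100a11 has 1 transcript and kept its value.

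A further 9 genes of the family were listed, and 4 of them, S100a3, S100a7a, S100a8 and S100g, had enough counts to test. S100g, which encodes the calcium carrier calbindin-D9k, was 333, 479 and 534 on day 0, 122, 50.6 and 147 on day 1, 3.48, 4.21 and 8.57 on day 3 and 1.91, 0.581 and 0.530 on day 7 in Krt8+/+ AECs. In Krt8-/- AECs it had 423, 379 and 563 on day 0, 103, 32.7 and 103 on day 1, 5.004, 7.65 and 5.49 on day 3 and 0.743, 0.0779 and 0.319 on day 7. No culture library reached its day 0 range. By edgeR the log2 difference was -2.07 (SE 0.44, adjusted p = 5.3e-04) on day 1, -6.36 (SE 0.55, adjusted p = 9.1e-09) on day 3 and -8.77 (SE 0.64, adjusted p = 5.7e-10) on day 7 in Krt8+/+ AECs. S100g in Krt8-/- AECs had edgeR values of -2.52 (SE 0.45, adjusted p = 1.0e-04) on day 1, -6.23 (SE 0.54, adjusted p = 1.2e-08) on day 3 and -10.09 (SE 0.69, adjusted p = 2.7e-10) on day 7. All were lower in 3 of 3 isolations. Without isolation 1 the day 7 values were -9.81 and -11.07.

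S100g fell on through culture. It differed between days 3 and 1 by -4.28 (SE 0.50, adjusted p = 5.1e-06) and between days 7 and 3 by -2.41 (SE 0.60, adjusted p = 0.016) in Krt8+/+ AECs, lower in 3 of 3 isolations by edgeR. The later step was called by edgeR without isolation 1, at -3.51 (adjusted p = 0.037), but not without isolation 2, at -2.33 (adjusted p = 0.051), or isolation 3, at -1.58 (adjusted p = 0.32). It was the only 1 of the 12 S100 genes tested that was called lower at both steps. The summed AEC2 markers given above also fell from each day to the next. On day 1 isolation 2 was the lowest of its group for both S100g and these sums, in both genotypes. The order of isolations 1 and 3 differed between them on day 1 of Krt8+/+ AECs. On day 7 of Krt8+/+ AECs the order also differed, but S100g then had only 28, 7 and 8 counts. The part of the AEC2 markers in the S100g result was not tested.

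S100a7a was 0.954, 0.217 and 0 on day 0, 3.30, 6.02 and 2.72 on day 1, 4.66, 6.55 and 4.48 on day 3 and 14.8, 7.22 and 6.63 on day 7 in Krt8+/+ AECs. Its Krt8-/- values were 0.0720, 0.304 and 0 on day 0, 2.60, 4.67 and 4.13 on day 1, 4.59, 6.03 and 3.73 on day 3 and 4.86, 4.91 and 5.29 on day 7. Like S100a4 it passed the filter through culture libraries, with 17 and 4 counts over the 3 day 0 libraries of each genotype. By edgeR the differences were 3.13 (adjusted p = 3.7e-04) on day 1, 3.52 (adjusted p = 9.9e-05) on day 3 and 4.39 (adjusted p = 7.3e-06) on day 7 in Krt8+/+ AECs and 4.98 (adjusted p = 2.3e-05) on day 1, 5.31 (adjusted p = 8.4e-06) on day 3 and 5.38 (adjusted p = 5.2e-06) on day 7 in Krt8-/- AECs, higher in 3 of 3 isolations. Without isolation 1 the Krt8+/+ values were 5.20, 5.54 and 5.87, and without isolation 2 the Krt8-/- values were 6.29, 6.57 and 6.85. Without isolation 3 the Krt8-/- values on days 1 and 7 were 4.34 and 4.76.

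S100a3 was 0.254, 0.650 and 0.332 on day 0, 1.10, 1.42 and 3.60 on day 1, 0.787, 0.518 and 1.19 on day 3 and 1.43, 1.82 and 2.92 on day 7 in Krt8+/+ AECs, and it too passed through culture libraries, with 13 counts over the 3 Krt8+/+ libraries on day 0. By edgeR it was 2.33 (adjusted p = 0.0026) on day 1, 1.05 (adjusted p = 0.15) on day 3 and 2.34 (adjusted p = 0.0021) on day 7, higher in 3 of 3 isolations on days 1 and 7 and in 2 of 3 on day 3. The day 1 value by edgeR was 1.54 (adjusted p = 0.085) without isolation 3 and 3.09 without isolation 2, and without isolation 2 the values on days 3 and 7 were 1.83 and 2.94. On day 3 the value was 0.79 without isolation 1 and 0.60 without isolation 3. The Krt8-/- values of S100a3 were 1.18 (adjusted p = 0.095) on day 1, 1.01 (adjusted p = 0.15) on day 3 and 1.14 (adjusted p = 0.094) on day 7 by edgeR, higher in 3 of 3 and not called. The interaction test had an unadjusted p of 0.27 and an adjusted p of 1. With isolation as a block the Krt8-/- day 7 value was called by edgeR (adjusted p = 0.041).

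S100a8, which encodes a neutrophil protein, was 0.636, 0.433 and 0 on day 0, 0.881, 0.167 and 0.407 on day 1, 1.44, 0.130 and 0.340 on day 3 and 1.36, 0.415 and 0 on day 7 in Krt8+/+ AECs. Its Krt8+/+ log2 differences by edgeR were 0.37 (adjusted p = 0.82) on day 1, 0.74 (adjusted p = 0.64) on day 3 and 0.65 (adjusted p = 0.68) on day 7, higher in 2, 2 and 1 of 3 isolations and not called. Without isolation 3 the day 1 value was -0.029, and without isolation 2 the day 3 value was 1.43. In Krt8-/- AECs, with 2 counts over the day 0 libraries, the S100a8 values by edgeR were 1.86 (adjusted p = 0.38) on day 1, 2.001 (adjusted p = 0.34) on day 3 and 1.94 (adjusted p = 0.34) on day 7, not called, and without isolation 2 day 1 was 0.25. S100a9 had 26, 7, 3 and 0 counts over the 3 Krt8+/+ libraries of days 0, 1, 3 and 7. S100b had 34 counts over the 3 Krt8+/+ libraries on day 0 and 0 on day 1. S100a2 had 4 or fewer in each Krt8+/+ group, S100a5 had 1 count in all, and S100z had 0. The neutrophil markers Csf3r, Cxcr2, Mpo, Elane, Retnlg and Ly6g summed to no more than 2.99 in any library, and 1 of the 6 had enough counts to test.

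Of 21 partners and receptors of S100 proteins, edgeR called 10 and 6 higher and lower on day 1 in Krt8+/+ AECs, 10 and 7 on day 3 and 11 and 5 on day 7. The Krt8-/- counts were 10 and 7, 11 and 7 and 10 and 6, and the shares of all genes called were those given above. The median log2 differences were 0.64, 0.66 and 0.89 in Krt8+/+ AECs and 0.42, 0.98 and 0.55 in Krt8-/- AECs. Between genotypes edgeR called 0 of the 21 on each day, with 0, 1, 1 and 0 at an unadjusted p under 0.05 on days 0, 1, 3 and 7 and 0 by DESeq2.

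Trp53 and Mdm2 encode proteins that bind several S100 proteins. Trp53 was 22.9, 33.5 and 27.0 on day 0, 109, 122 and 97.6 on day 1, 123, 151 and 119.9 on day 3 and 181, 161 and 131 on day 7 in Krt8+/+ AECs, and its edgeR values were 1.98 (SE 0.16, adjusted p = 4.9e-09) on day 1, 2.25 (SE 0.16, adjusted p = 9.1e-10) on day 3 and 2.51 (SE 0.16, adjusted p = 1.3e-10) on day 7, higher in 3 of 3 isolations. Mdm2 differed by 2.36 (SE 0.22, adjusted p = 3.9e-08) on day 1, 1.34 (SE 0.22, adjusted p = 2.7e-05) on day 3 and 2.05 (SE 0.22, adjusted p = 1.2e-07) on day 7 by edgeR, also in 3 of 3. Capzb, which encodes a subunit of the actin capping protein, was at 0.34 (adjusted p = 0.24) on day 1, 1.16 (adjusted p = 3.6e-04) on day 3 and 2.04 (adjusted p = 4.9e-07) on day 7 by edgeR, in 3 of 3. The Krt8-/- differences were 2.10, 2.04 and 2.28 for Trp53, 2.20, 1.18 and 1.91 for Mdm2 and 0.42, 1.09 and 1.82 for Capzb, with only the Capzb value on day 1 not called by edgeR (adjusted p = 0.15).

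Of the receptor genes, Ager, which encodes the receptor RAGE and also marks AEC1s, was 1643, 2033 and 2051 on day 0, 512, 174 and 518 on day 1, 379.6, 679 and 977 on day 3 and 741, 861 and 1349.6 on day 7 in Krt8+/+ AECs. By edgeR it was -2.25 (SE 0.43, adjusted p = 1.7e-04) on day 1, -1.49 (SE 0.42, adjusted p = 0.0047) on day 3 and -0.96 (SE 0.41, adjusted p = 0.051) on day 7, lower in 3 of 3 isolations. The day 7 value was called by DESeq2 (adjusted p = 0.03), with isolation as a block (0.032), without the filter and with the compared libraries only, so its call depended on the method. In Krt8-/- AECs Ager was -2.34 (SE 0.43, adjusted p = 1.3e-04) on day 1, -1.299 (SE 0.41, adjusted p = 0.012) on day 3 and -1.18 (SE 0.41, adjusted p = 0.018) on day 7 by edgeR, lower in 3 of 3 isolations and called on each day. Without isolation 1 the Krt8-/- edgeR calls on days 3 and 7 were lost, at -1.09 (adjusted p = 0.092) and -1.04 (adjusted p = 0.095), and without isolation 3 as well, at -1.38 (adjusted p = 0.059) and -1.08 (adjusted p = 0.12). Of the 6 AEC1 markers, which include Ager, edgeR called 2 higher and 3 lower on day 1 in Krt8+/+ AECs, 4 and 2 on day 3 and 4 and 1 on day 7, and the medians were -0.78, 1.57 and 1.998. The Krt8-/- counts were 1 and 3, 4 and 2 and 4 and 2, with medians of -0.83, 1.28 and 1.45.

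Tlr4 had -0.33 (SE 0.25, adjusted p = 0.27) on day 1, -1.33 (SE 0.26, adjusted p = 1.9e-04) on day 3 and -1.34 (SE 0.26, adjusted p = 1.5e-04) on day 7 by edgeR in Krt8+/+ AECs, lower in 2, 3 and 3 of 3 isolations and called on days 3 and 7. Tlr4 in Krt8-/- AECs was at -0.79 (SE 0.25, adjusted p = 0.014) on day 1, -1.48 (SE 0.26, adjusted p = 6.9e-05) on day 3 and -1.36 (SE 0.26, adjusted p = 1.3e-04) on day 7 by edgeR, lower in 3 of 3 and called on each day, but on day 1 not without isolation 1 (-0.57, adjusted p = 0.13) or 2 (-0.68, adjusted p = 0.16). Its interaction test had an unadjusted p of 0.57 and an adjusted p of 1. Kcnk3, whose channel is carried to the surface with S100A10, was -2.88 (SE 0.63, adjusted p = 7.0e-04) on day 1, -3.42 (SE 0.65, adjusted p = 1.5e-04) on day 3 and -4.37 (SE 0.69, adjusted p = 1.7e-05) on day 7 by edgeR in Krt8+/+ AECs, lower in 3 of 3. Without isolation 2 its values on days 1 and 3 were -2.17 and -2.72, and without isolation 3 the day 7 value was -5.26. The Krt8-/- values of Kcnk3 by edgeR were -1.60 (SE 0.61, adjusted p = 0.035) on day 1, -2.91 (SE 0.66, adjusted p = 8.7e-04) on day 3 and -3.91 (SE 0.71, adjusted p = 7.8e-05) on day 7, also lower in 3 of 3. That of day 1 was not called without isolation 1, 2 or 3, at -2.004 (adjusted p = 0.062), -1.01 (adjusted p = 0.26) and -1.80 (adjusted p = 0.052) by edgeR, and that of day 3 was -2.26 without isolation 2 and -4.20 without isolation 3. Plat, whose protein binds S100A10, was not called in Krt8+/+ AECs by edgeR, at 0.64 (adjusted p = 0.3) on day 1, 0.54 (adjusted p = 0.39) on day 3 and -0.28 (adjusted p = 0.66) on day 7, higher in 3, 2 and 2 of 3 isolations. Without isolation 1 its day 3 value was called by edgeR at 1.17 (adjusted p = 0.034), and its day 7 value was 0.61. In Krt8-/- AECs Plat had 0.42 (adjusted p = 0.51) on day 1, 1.28 (adjusted p = 0.042) on day 3 and 0.047 (adjusted p = 0.95) on day 7 by edgeR, higher in 3, 3 and 2 of 3 isolations and called on day 3. That edgeR call was lost without isolation 2 (1.22, adjusted p = 0.18) or 3 (1.02, adjusted p = 0.16), and the Krt8-/- day 7 value ran from -0.25 to 0.64 with 1 isolation left out. The interaction test of Plat had an unadjusted p of 0.57 and an adjusted p of 1.

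Members were also correlated across the 24 libraries. These correlations are of log2 CPM, n = 24 libraries, and they include the differences between days. S100a6 and S100a11 had r = 0.98, S100a6 and S100a14 0.97, S100a11 and S100a16 0.97, and S100a14 and S100a16 0.96. S100a10 had r = 0.92 with S100a11, 0.88 with S100a6, 0.85 with S100a16 and 0.81 with S100a14. S100a4 had 0.83 with S100a6, 0.76 with S100a11, 0.71 with S100a14, 0.69 with S100a16 and 0.69 with S100a10. S100a1 and S100a13 had r = 0.58 with each other, and S100a1 had -0.72 with S100a6.

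Among the 18038 genes tested outside the 8, those most like each member were as follows, again with n = 24 libraries. For S100a6 they were Acot9 (r = 0.99), Gsto1 (0.99) and Nutf2 (0.99), and for S100a11 Gsto1 (r = 0.99), Nutf2 (0.99) and Gm12854 (0.98). Gm12854 is 1 of the copies of S100a11 named above. S100a10 was most like Rpl15 (r = 0.97), Commd3 (0.96) and Rps2-ps10 (0.96). The list for S100a14 was Rdh10 (r = 0.99), Syt8 (0.98) and Naa20 (0.98), and for S100a16 it was Lsm4 (r = 0.98), Vta1 (0.97) and Anxa3 (0.97). S100a4 was nearest to Fam198b (r = 0.96), Lhfp (0.96) and Ndn (0.96). For S100a1 the list was Oard1 (r = 0.90), Tmem176b (0.90) and Idh3g (0.89), and S100a13 had Atp5h (r = 0.87), Ccnq (0.86) and Cox6c (0.86).

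The 8 genes lie in 2 clusters on chromosome 3 (build GRCm38, GENCODE coordinates). In the first, S100a1, S100a13, S100a14, S100a16, S100a4 and S100a6 span 113148 bases (chr3:90511034-90624181). The second holds S100a11 and S100a10 over 44156 bases (chr3:93520488-93564643), with 28792 bases between the genes. S100a1 is on the minus strand and the other 7 on the plus strand. Along the first cluster the genes that were lower or flat, S100a1 and S100a13, are next to each other with 42 bases between them. S100a14 begins 2274 bases past S100a13, and S100a16 begins 8416 bases past S100a14. S100a3 lies 17426 bases past S100a16, and S100a5, with 1 count in all, lies between S100a4 and S100a6. The annotation also has Gm42674 across S100a4 on the same strand, sharing 302 exon bases, and it had 10 counts over the 24 libraries against 16147 for S100a4.

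**Figure D3:**
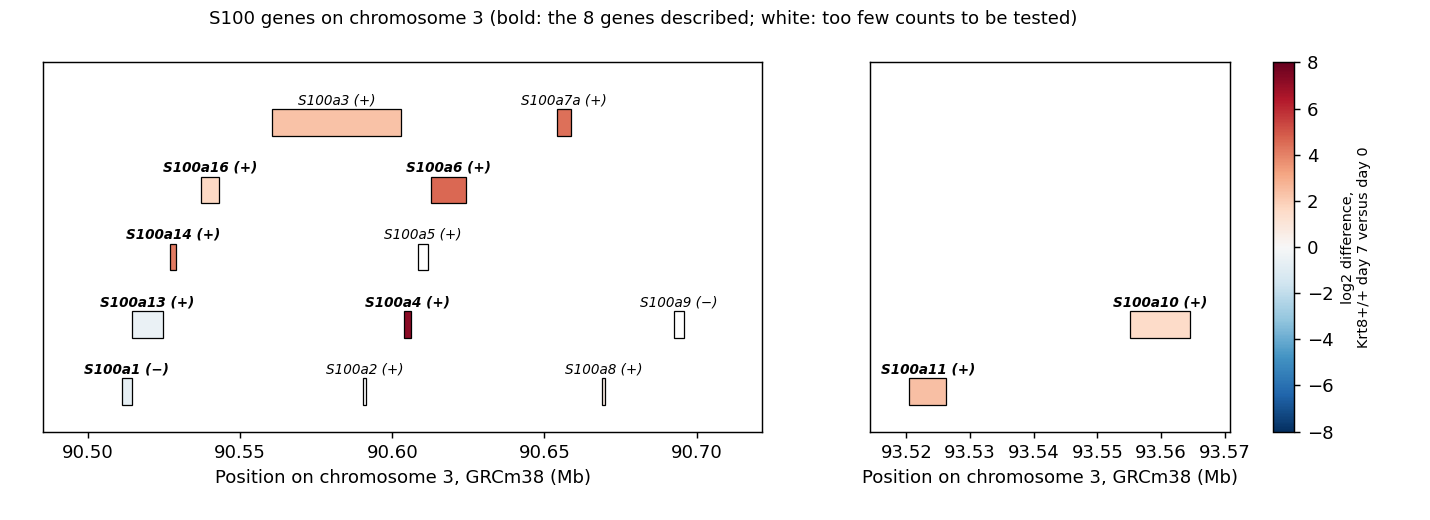
S100 genes of chromosome 3 in map order, coloured by the log2 difference between day 7 and day 0 in Krt8+/+ AECs. Genes in white had too few counts to test, and the 8 members are in bold.

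The RefSeq promoter set used here, from 250 bases before to 50 after the start, covered 6 of the 8 members, with 2 for S100a16, making 7. That set had no entry for S100a10 and S100a14. The promoters are described because S100a6, S100a11 and S100a16 moved together while S100a1 and S100a13 did not. The 7 windows were searched on both strands for TGANTCA, the core of AP-1 sites, for GGAATG, the core of TEAD sites, and for the TATA box letters TATAAA. The first motif was in 2 of the 7, in S100a11 and in the second promoter of S100a16, and 7.81% of the 32851 mouse promoters of this length hold it. S100a11 has it at 2 places, beginning at bases 115 and 213, and 0.460% of all promoters hold 2 or more. In S100a16 it begins at base 59. TATAAA was in 1 of the 7, S100a4, at base 220, beside 13.6% of all promoters. GGAATG was in 0 of the 7, beside 14.7%. A match of letters is a description only.

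The promoters of S100a11 (chr3:93520246-93520545) and S100a16 (chr3:90540896-90541195) are shown because both genes rose and both windows hold TGANTCA. That of S100a4 (chr3:90603520-90603819) is shown for TATAAA in the member that began near 0. All are from RefSeq on build GRCm38.p6, plus strand, 5′ to 3′, with the searched motif in capitals.
S100a11: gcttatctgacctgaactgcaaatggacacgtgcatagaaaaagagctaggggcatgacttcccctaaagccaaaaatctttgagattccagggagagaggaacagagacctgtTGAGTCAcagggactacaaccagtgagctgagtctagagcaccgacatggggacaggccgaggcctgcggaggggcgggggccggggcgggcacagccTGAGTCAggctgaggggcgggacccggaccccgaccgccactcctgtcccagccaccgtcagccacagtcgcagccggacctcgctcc
S100a16: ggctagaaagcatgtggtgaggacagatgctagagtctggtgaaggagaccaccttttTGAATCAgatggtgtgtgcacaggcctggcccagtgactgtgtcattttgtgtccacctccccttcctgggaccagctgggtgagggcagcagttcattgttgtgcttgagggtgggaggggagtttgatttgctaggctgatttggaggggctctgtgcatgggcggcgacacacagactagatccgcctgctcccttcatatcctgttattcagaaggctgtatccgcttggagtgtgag
S100a4: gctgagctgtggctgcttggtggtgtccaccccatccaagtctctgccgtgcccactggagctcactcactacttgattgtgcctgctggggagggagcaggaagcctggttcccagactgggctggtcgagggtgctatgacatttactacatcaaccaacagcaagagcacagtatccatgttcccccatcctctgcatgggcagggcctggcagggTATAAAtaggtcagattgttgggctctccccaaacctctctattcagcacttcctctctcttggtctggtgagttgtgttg

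The promoters of S100a6 (chr3:90612644-90612943), the abundant member with the largest change, and S100a13 (chr3:90514185-90514484), which was flat or lower, are shown for contrast and hold none of the 3 motifs, so nothing is in capitals. They are from RefSeq on build GRCm38.p6, plus strand. The S100a13 window shares 204 bases (chr3:90514281-90514484) with that of S100a1, which is read from the other strand.
S100a6: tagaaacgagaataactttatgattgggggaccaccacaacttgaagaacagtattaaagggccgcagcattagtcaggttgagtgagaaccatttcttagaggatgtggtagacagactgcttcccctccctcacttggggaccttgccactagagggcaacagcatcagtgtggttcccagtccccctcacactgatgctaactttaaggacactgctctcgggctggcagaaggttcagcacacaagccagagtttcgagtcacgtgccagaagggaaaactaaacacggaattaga
S100a13: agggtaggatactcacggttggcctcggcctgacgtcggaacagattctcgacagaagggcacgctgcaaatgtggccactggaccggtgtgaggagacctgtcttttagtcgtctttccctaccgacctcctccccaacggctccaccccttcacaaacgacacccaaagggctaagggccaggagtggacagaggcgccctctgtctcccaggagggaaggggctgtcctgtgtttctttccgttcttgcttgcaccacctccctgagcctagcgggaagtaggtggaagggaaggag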

How the data were processed

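Counts for each gene were used as deposited by the authors, as whole numbers without scaling. Their notes name cutadapt 2.3, STAR 2.7.8a, RSEM 1.3.3 and build GRCm38 without roles, and whether the counts are rounded RSEM estimates is not stated. All 24 libraries were used, 0 columns were left out, and the 5 entries without an Ensembl identifier had 0 counts. Depth was 10184439 to 19483386 counts per library. Libraries of a group were checked in pairs for duplicates, and the 24 pairs differed by a chi-square of 9.53 to 111 for each gene.

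The tools were DESeq2 1.42.0, edgeR 4.0.16 and limma 3.58.1 under R 4.3.3. A filter on low counts (filterByExpr, at least 10 counts as min.count and 15 as the total) kept 18046 genes. TMM factors were 0.746 to 1.203. All libraries entered 1 edgeR quasi-likelihood fit of 8 groups, leaving 16 residual degrees of freedom. Benjamini-Hochberg adjustment covered all genes kept, and calls were made under 0.05. Each day was compared with day 0 in each genotype, days 3 with 1 and 7 with 3 in Krt8+/+ AECs, genotypes on each day, and the genotype difference by day with 3 degrees of freedom. The alternatives were DESeq2, RLE size factors, no filter, a block for isolation, fits without 1 isolation and fits of the compared libraries alone. Replicate numbers follow the isolation dates, so libraries were paired by them. Residuals of paired libraries correlated at r = -0.03 to 0.55 over the comparisons. Isolations showing a direction were counted on these pairs.

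Named genes were the 8 members, 9 other S100 genes, 21 partners and receptors, cell type markers, neighbours, and the 3 genes most correlated with each member (log2 CPM, prior count 2). Members and lists were chosen with earlier results of these data known. Copies were sought with BLAST (at least 90% identity over 100 bases). The fit was tested on data simulated for Krt8-/- against Krt8+/+ AECs on day 7. It recovered 41 of 100 changes of 2-fold and 66 of 100 of 4-fold, with 6 false calls.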

Additional observations from a re-analysis of the deposited data

Results flagged for a closer look

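All 8 members were looked through on each day, and the estimated genotype difference of 2 had opposite directions on different days. S100a1 was higher in Krt8-/- than in Krt8+/+ AECs in all 3 isolations on day 3 (log2 difference 0.23) and lower in all 3 on day 7 (-0.28). S100a14 was higher in all 3 on day 0 (0.35) and on day 3 (0.19) and lower in all 3 on day 7 (-0.25). The groups overlapped in each of these comparisons and none was called. The edgeR interaction test of genotype and day had an unadjusted p of 0.35 for S100a1 and 0.52 for S100a14, with an adjusted p of 1 for both.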

How the results depend on the processing

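The numbers of S100 genes called held in some comparisons and changed in others under the alternatives. These alternatives were size factors of the DESeq2 type (RLE), DESeq2, a fit without the filter, a replicate block for isolation, fits without 1 isolation, and a fit of the compared libraries only. On day 3 of Krt8-/- AECs against day 0, S100a1 gained its call with the block and with the compared libraries only. There S100a13 lost its call without any 1 isolation, and S100a10 without isolation 2. Between days 1 and 3 of Krt8+/+ AECs the count was 1 and lay between 1 and 2 with 1 isolation left out, with 2 without isolation 2. Between days 3 and 7 it was 0, and 1 without the filter.

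Of 384 log2 differences of the 8 genes from day 0 under these alternatives, 0 changed sign, 9 lost their call, 3 gained it and 372 did neither. With isolation as a block, S100a1 on day 3 of Krt8-/- AECs (-0.48) and S100a13 on day 7 (-0.52) were called, and so was S100a1 on day 3 of Krt8-/- AECs with the compared libraries only (-0.44). Over all 1024 single-gene values 31 changed sign, each in a comparison between days of culture or between genotypes, and none of these was called in the fit of all libraries. S100a8 was not among the 1024, and its day 1 difference from day 0 in Krt8+/+ AECs, 0.37, was -0.029 without isolation 3.

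Signs changed as follows, with log2 ranges over the 3 fits with 1 isolation left out. Between days 1 and 3, S100a11 ran from -0.24 to 0.35, S100a13 from -0.38 to 0.16 and S100a16 from -0.21 to 0.31. S100a16 was also 0.0086 without the filter and 0.016 with isolation as a block. Between days 3 and 7 the ranges were -0.29 to 0.012 for S100a1, -0.13 to 0.087 for S100a13 and -0.11 to 0.18 for S100a16, and S100a13 was 0.0014 with the block.

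Between genotypes on day 0 the ranges were -0.0063 to 0.23 for S100a1, -0.012 to 0.24 for S100a13 and -0.24 to 0.094 for S100a16. On day 1 they were -0.076 to 0.14 for S100a1, -0.10 to 0.21 for S100a11 and -0.059 to 0.067 for S100a16. S100a1 on day 1 was also -0.015 with RLE, -0.015 with DESeq2 and -0.014 with the compared libraries only. S100a11 was 0.00088 without the filter and 0.018 with isolation as a block, and S100a16 0.0037 and 0.0084. On day 3 the ranges were -0.21 to 0.21 for S100a6, -0.23 to 0.12 for S100a10 and -0.21 to 0.18 for S100a13. Day 7 gave -0.16 to 0.52 for S100a4, -0.056 to 0.17 for S100a13 and -0.13 to 0.010 for S100a16.

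Lengths other than the longest principal transcript were tried after the data had been seen. On day 7 in Krt8+/+ AECs S100a6 moved from 1548 to 2439 CPM per kilobase with the shortest and to 828 with merged exons, S100a14 from 119 to 262 and 73.2, and S100a11 kept its value. With 3 isolations a group, differences may have been missed, and not only small ones. RNA levels say nothing of protein. Culture and time cannot be told apart, and the part of other cell types in the S100a4 result was not tested.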
